A study of Mus musculus with 15 samples.

Results

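The Myc locus was examined in mouse double-positive thymocytes as the stretch from 500 kb upstream to 2 Mb downstream of Myc, chr15:61316946-63821929 in mm9, which is 2.50 Mb long and holds Myc (ENSMUSG00000022346.8, chr15:61816946-61821929, plus strand), the lncRNA gene Pvt1 (ENSMUSG00000072566.3, chr15:61869542-62209651, plus strand) and the gene desert beyond it. All peaks of 5 deposited lists that lie in this window were taken, with no choice by height, which gave 188 of 185702 peaks. These were 25 CTCF peaks, 30 and 42 Rad21 peaks in replicates 1 and 2, and 66 and 25 H3K27ac peaks in replicates 1 and 2. The lists were made by ChIP-seq from wild type CD69- CD4+CD8+ primary thymocytes of C57BL/6 mice, for which the labels give no treatment and no age. CTCF was profiled in 1 library, Rad21 in 2 and H3K27ac in 2, and the labels leave unsaid whether the replicates are separate animals, so differences between them may be technical. The series has 15 samples, and its 8 Hi-C and 2 input samples were not analysed here. With no second condition in the peak lists, the values below describe 1 locus and no test was made. Where it was computed, the same measure over chromosomes 1 to 19 and X stands beside a count. The library depths are unknown, because peak lists hold no numbers of reads.

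Myc is a basic helix-loop-helix leucine zipper transcription factor that binds DNA together with Max and drives growth and proliferation. In T cell development it is a target of Notch signalling at the early, dividing stages, and CD69- double-positive thymocytes are the largely resting cells that follow. Much of its regulation comes from enhancers far downstream, beyond Pvt1, which include a Notch-responsive enhancer used in T cell leukaemia and a cluster used by blood stem cells and myeloid leukaemia. Whether any peak described here coincides with those elements was not tested. CTCF is a zinc finger protein whose core motif has a direction, Rad21 is part of cohesin, the ring that extrudes DNA loops and halts at CTCF, and H3K27ac marks active promoters and enhancers. Loops most often join CTCF motifs that point towards each other.

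The labelled cell type was checked at promoters, defined as 2 kb on either side of an annotated transcription start site (TSS). H3K27ac present in both replicates lay at the promoters of Cd4, Cd8a, Cd8b1, Cd3e, Rag1, Rag2 and Ptcra, which mark double-positive cells. It lay at 0 of 4 markers of myeloid cells, 0 of 4 of thymic epithelium and 1 of 3 of erythroid cells, Klf1. The B cell markers Cd79a, Ms4a1 and Pax5 had none. In replicate 1 only, H3K27ac lay at Epcam of the epithelial markers (fold 7.03) and at Itgam of the myeloid markers (fold 2.23). Over the genome, H3K27ac of both replicates lay at the promoters of 41.5% of protein-coding genes.

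Distances are given in kb from the Myc TSS, positive downstream. CTCF sites are placed by their summits and other regions by their midpoints. The sequences shown first are those of the CTCF site at -2.0 kb and of the 9 distal CTCF sites with a core motif. The direction of their motifs is the pattern that the distal results turn on. Each was read from the NCBIM37 (mm9) reference and is written 5′ to 3′ on the strand that carries the motif, with the bases aligned to the CTCF core consensus in capitals. Both strands were read up to 50 bp from the summit, and up to 2 mismatches were allowed.
CTCF site at -2.0 kb, chr15:61814972-61815012, plus strand: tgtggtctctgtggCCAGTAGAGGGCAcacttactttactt
CTCF site at +1616.4 kb, chr15:63433291-63433331, minus strand: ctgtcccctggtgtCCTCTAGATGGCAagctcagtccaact
CTCF site at +1667.3 kb, chr15:63484265-63484305, minus strand: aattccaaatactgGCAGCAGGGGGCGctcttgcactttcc
CTCF site at +1736.5 kb, chr15:63553435-63553475, minus strand: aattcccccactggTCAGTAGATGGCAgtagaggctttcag
CTCF site at +1755.4 kb, chr15:63572289-63572329, minus strand: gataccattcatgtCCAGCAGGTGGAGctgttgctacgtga
CTCF site at +1786.4 kb, chr15:63603321-63603361, minus strand: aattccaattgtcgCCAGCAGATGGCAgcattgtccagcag
CTCF site at +1843.4 kb, chr15:63660290-63660330, minus strand: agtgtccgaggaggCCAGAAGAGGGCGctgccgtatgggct
CTCF site at +1876.8 kb, chr15:63693699-63693739, minus strand: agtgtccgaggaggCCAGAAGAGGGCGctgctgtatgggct
CTCF site at +1910.4 kb, chr15:63727290-63727330, minus strand: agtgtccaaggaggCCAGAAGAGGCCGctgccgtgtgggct
CTCF site at +1910.8 kb, chr15:63727710-63727750, plus strand: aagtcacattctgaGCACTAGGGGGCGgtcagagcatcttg
The site at -2.0 kb and the site at +1786.4 kb matched the core with 0 mismatches. The motif at -2.0 kb is on the plus strand and so points into Myc and downstream, while 8 of the 9 distal motifs shown are on the minus strand and point back towards Myc.

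A second set shows cohesin sites with no CTCF peak. The summits of 2 shared Rad21 regions in the desert lay on the same core although no CTCF peak overlapped them. The one at +827.9 kb had 0 mismatches and the one at +817.6 kb had 2. Single-replicate Rad21 summits without CTCF at +1255.4 and +1494.2 kb also had a core nearby, with 2 mismatches each, and are not printed.
Rad21 summit at +817.6 kb without a CTCF peak, chr15:62634515-62634555, plus strand: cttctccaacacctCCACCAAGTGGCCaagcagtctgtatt
Rad21 summit at +827.9 kb without a CTCF peak, chr15:62644826-62644866, minus strand: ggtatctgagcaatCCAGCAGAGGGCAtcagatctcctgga
In replicate 2 the highest cohesin sites without CTCF lay in an intron of Pvt1, while in replicate 1 the one at +827.9 kb was above them. The Pvt1 300-base elements shown here are centred on the Rad21 summit of replicate 1, with the replicate 2 summits 72 and 60 bp away. They are written on the plus strand, and capitals mark short motifs that are counted further on.
Pvt1 intron element at +179.5 kb, chr15:61996404-61996703, plus strand: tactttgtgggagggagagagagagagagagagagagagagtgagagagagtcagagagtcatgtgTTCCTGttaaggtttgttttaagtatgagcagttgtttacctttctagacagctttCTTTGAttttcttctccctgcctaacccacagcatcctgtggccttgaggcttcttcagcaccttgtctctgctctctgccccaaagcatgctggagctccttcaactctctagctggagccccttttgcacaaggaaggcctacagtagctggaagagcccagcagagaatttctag
Pvt1 intron element at +184.4 kb, chr15:62001225-62001524, plus strand: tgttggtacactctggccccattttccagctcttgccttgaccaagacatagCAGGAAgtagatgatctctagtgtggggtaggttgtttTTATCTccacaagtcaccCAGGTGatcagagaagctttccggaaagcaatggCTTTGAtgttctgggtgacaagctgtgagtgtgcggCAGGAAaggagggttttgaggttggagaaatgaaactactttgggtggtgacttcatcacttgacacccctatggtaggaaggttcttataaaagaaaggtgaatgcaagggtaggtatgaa
The element at +184.4 kb holds the ETS letters CAGGAA at 2 places, the TCF and LEF letters CTTTGA, the GATA letters AGATAA in reverse and the E box CAGGTG. The element at +179.5 kb holds the ETS letters in reverse and CTTTGA once.

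Rad21 peaks of the 2 replicates merged into 49 regions in the window. A region was called shared when it held a peak of each, and 22 were shared, 8 were seen in replicate 1 only and 19 in replicate 2 only. Regions seen once were low: their median fold enrichment over local background was 4.66 in replicate 1 and 4.97 in replicate 2, and only 1 overlapped a CTCF peak. That one, at +428.5 kb, had a Rad21 fold of 12.2 in replicate 2 and no peak in replicate 1. Of the 22 shared regions 13 were higher in replicate 2, and 14 had summits within 50 bp of each other. Across the 22 regions the replicate folds gave a Spearman rho of 0.81, a description over sites that share their libraries, and over all 30959 shared regions rho was 0.77.

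**Figure D1:**
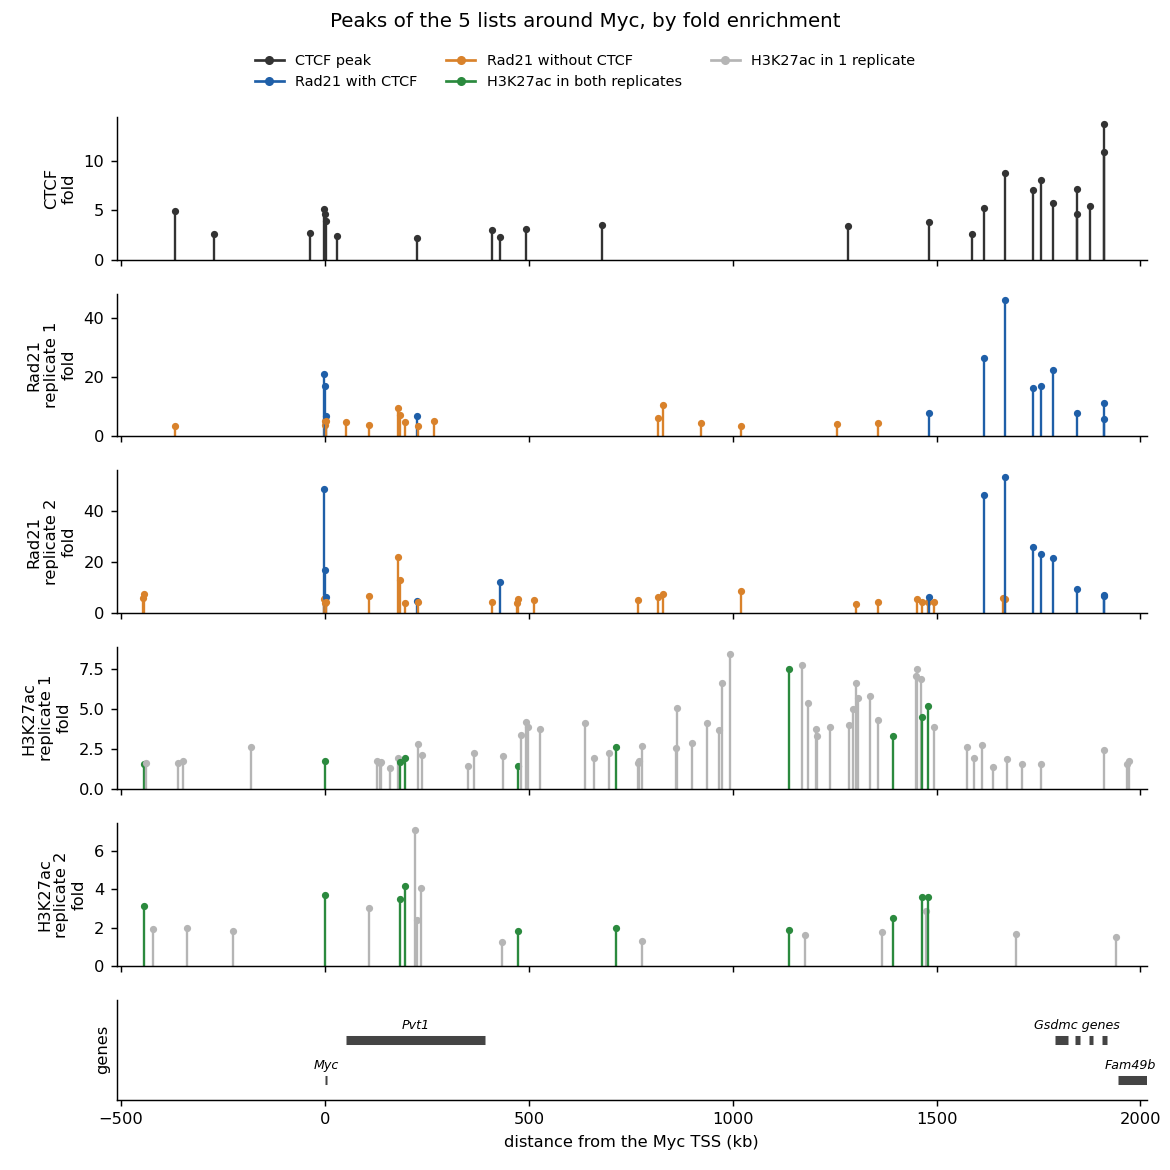
Each stem is a peak or merged region of a list at its distance in kb from the Myc TSS (x axis), with its fold enrichment as height (y axis, a separate scale for each list), and the lowest panel shows genes. The tall Rad21 stems stand at the Myc promoter and between +1616.4 and +1910.8 kb, with the tallest at +1667.4 kb (45.9 in replicate 1 and 53.5 in replicate 2). The tallest CTCF stems stand in that distal stretch.

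Cohesin stood highest at the Myc promoter and in the last stretch of the window. Ranked by the lower of their replicate folds, the first 7 of the 22 shared Rad21 regions lay within 2 kb of the Myc TSS (2 regions) or from 1.5 to 2 Mb downstream (5 regions). Their lower folds were at least 16.2, and the next region, in Pvt1, had 9.48. This cut at 7 was chosen after the values were seen.

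The Myc promoter carried all 3 marks, as did 15% of 22350 protein-coding genes, and within 3 kb of the TSS lay 4 shared and 5 single-replicate Rad21 regions. The highest was 2 kb upstream, where Rad21 had a fold of 21.0 in replicate 1 and 48.9 in replicate 2, among the top 14.1% and 2.43% of its lists. It covered the CTCF peak with the perfect core, whose CTCF fold was 5.09, near the middle of its list (top 55.8%). The Rad21 summits lay 8 bp apart. This site is the one CTCF-bound Rad21 region of the promoter outside acetylated chromatin: the nearest H3K27ac began 38 bp away.

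At +0.2 kb, in the 5′ UTR, Rad21 had folds of 17.0 and 16.7 in replicates 1 and 2, with both summits at the same base. The CTCF peak there had a fold of 4.66 and no core motif within 50 bp of its summit. A further CTCF peak at +1.7 kb, also annotated as UTR, was weaker, with a fold of 3.93 and a q of 0.05 or more, and its Rad21 region had folds of 6.87 and 6.10. Between the upstream site and the TSS, at -1.0 kb, lay a Rad21 region without CTCF, with folds of 5.02 and 5.85. The other promoter regions were seen in 1 replicate each, with folds from 3.72 to 5.27.

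H3K27ac at Myc differed in extent and rank between the replicates. In replicate 1 a single peak of 4471 bp ran from -1622 to +2848 bp with a fold of 1.77, lower than most of its list (top 83.4%), and a q above 0.05. In replicate 2 there were 2 peaks, of 685 bp with a fold of 3.71 and of 235 bp with a fold of 2.74, both with q below 0.05, and the higher one stood in the top 34.5% of its list. Neither covered the Rad21 region at -1.0 kb, which therefore overlapped H3K27ac only through the wider peak of replicate 1.

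**Figure D2:**
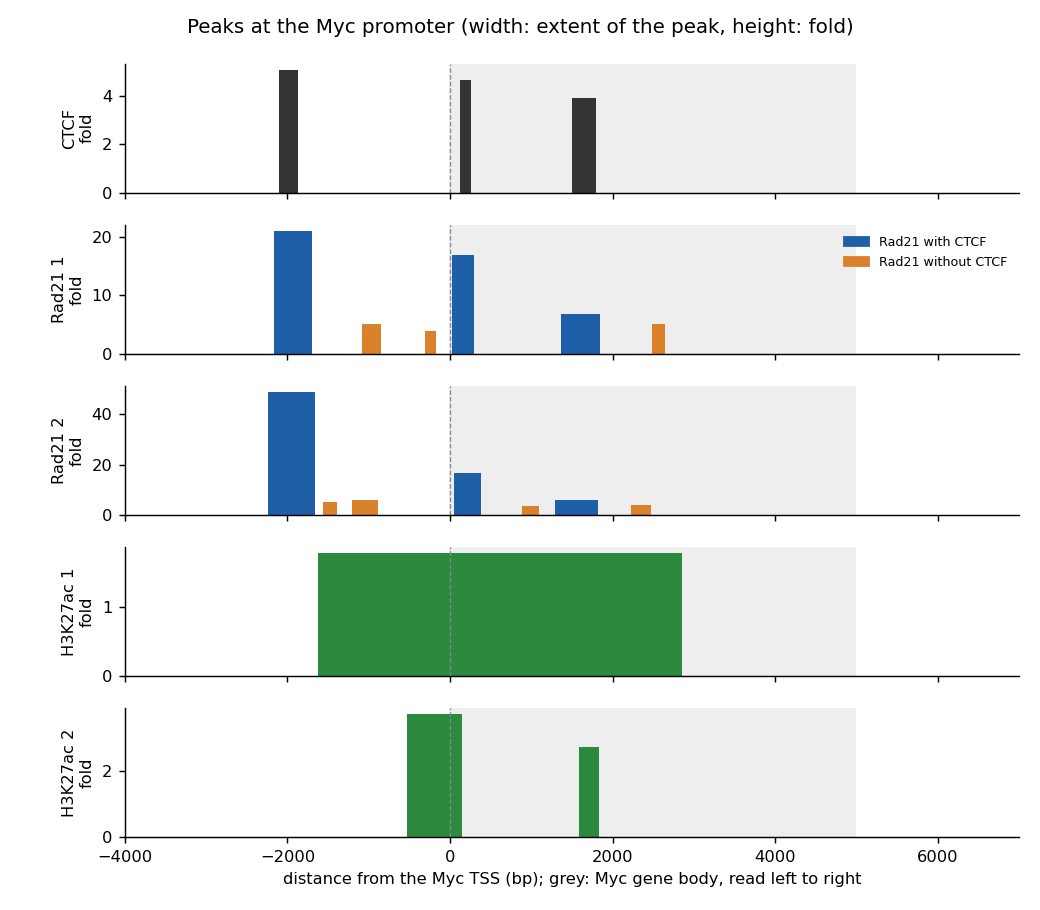
Peaks of each list around the Myc TSS, in bp from the TSS (x axis), drawn to their true width with fold enrichment as height (y axis, separate scales). The Rad21 peak at -2.0 kb stands outside the H3K27ac peaks of both replicates and reaches 21.0 and 48.9, and the peaks at the TSS reach 17.0 and 16.7.

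The Pvt1 promoter, 52.6 kb downstream of the Myc TSS, had none of the 3 marks in shared form. Its one peak was Rad21 in replicate 1, with a fold of 4.72. Of the other genes in the window, the H2afy3 pseudogene inside Pvt1, the small RNA genes AC134453.1, SNORA17 and U7, and the gasdermin C genes Gsdmc, Gsdmc2, Gsdmcl1, Gsdmc3 and Gsdmc4 had no shared mark at their promoters. Gasdermins form membrane pores, and the C genes are known from gut and skin epithelium. Fam49b, whose body crosses the far edge of the window, carried all 3 marks at promoters beyond that edge, with a CTCF fold of 3.80, Rad21 folds of 11.6 and 10.2 and H3K27ac folds of 3.64 and 2.44. Thus 2 of 12 genes in or across the window had CTCF, Rad21 and H3K27ac at a promoter, against 15% of protein-coding genes over the genome. The 12 include non-coding genes and a pseudogene, so the sets differ in kind. For single marks the share of protein-coding genes was 26.4% for CTCF, 31.5% for Rad21 and 41.5% for H3K27ac.

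Inside Pvt1 cohesin lay mostly without CTCF. From the end of Myc to the end of Pvt1 there were 5 shared Rad21 regions, all in introns of Pvt1. Of these, 4 overlapped no CTCF peak, while over the genome 65.9% of shared Rad21 regions overlapped one. The region at +179.5 kb had Rad21 folds of 9.48 and 22.1 and the region at +184.4 kb had 7.01 and 13.0, in replicates 1 and 2. The lower ones had 3.87 and 6.54 at +107.5 kb, and 3.48 and 4.10 at +227.0 kb. All 4 were higher in replicate 2 than in replicate 1, as were 13 of the 22 shared regions of the window. The fifth region, at +224.6 kb, overlapped a CTCF peak and had Rad21 folds of 6.80 and 4.68, but that CTCF peak was one of the weakest of its list (fold 2.24, top 98.3%) and had no core motif.

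H3K27ac in Pvt1 touched these regions unevenly. The +184.4 kb element lay in an H3K27ac region of both replicates, with H3K27ac folds of 1.70 and 3.50. The stronger +179.5 kb element overlapped H3K27ac in replicate 1 only and the +107.5 kb element in replicate 2 only. Stitched across gaps of up to 12000 bp, the acetylated region around +184.4 kb and the one at +196.0 kb (H3K27ac folds of 1.95 and 4.20) formed a cluster of 13105 bp, chr15:62000538-62013642. At its far end Rad21 was called once in each replicate, at +196.1 kb with a fold of 4.04 in replicate 2 and at +196.3 kb with a fold of 4.80 in replicate 1. These peaks did not overlap each other and so were not counted as shared. The highest H3K27ac peak of replicate 2 in the window, with a fold of 7.09, lay at +220.3 kb, also in Pvt1, and had no counterpart in replicate 1.

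The desert between Pvt1 and the distal CTCF sites held scattered cohesin sites. Shared Rad21 regions lay at +817.6 kb (folds of 6.19 and 6.18), +827.9 kb (10.7 and 7.26), +1021.2 kb (3.48 and 8.78) and +1355.3 kb (4.46 and 4.10), all without CTCF. Those at +817.6 and +827.9 kb had summits within 27 bp of each other between replicates and carried the core motifs printed above, on the plus strand at +817.6 kb and on the minus strand at +827.9 kb. The nearest CTCF peaks were 137553 and 147868 bp away. Of the 7 shared Rad21 regions of the window with neither CTCF nor shared H3K27ac, these 2 had a core motif within 50 bp of the summit, against 51.7% of such regions over the genome. Each of the printed stretches, 41 bases long, occurs at 1 place in the reference.

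The last shared Rad21 region before the distal array, at +1481.8 kb, had folds of 7.93 and 6.27. It overlapped a CTCF peak (fold 3.83, no core motif) and the edge of the widest H3K27ac cluster of the window, 18097 bp from +1463.7 to +1481.8 kb, chr15:63280645-63298741. The overlap with H3K27ac came from replicate 1 only, and the replicate 2 peaks in the cluster were 163 and 544 bp wide. That cluster was wider than all but 7.39% of the 11823 clusters over the genome, whose median width was 2125 bp. Stitched across gaps of up to 3000 bp instead, the widest cluster of the window was 6632 bp. Its H3K27ac folds were 4.51 and 3.62 at +1464.3 kb and 5.16 and 3.61 at +1478.5 kb. Inside it replicate 2 had 2 more Rad21 peaks, both with a fold of 4.10, and replicate 1 had none.

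H3K27ac along the locus differed between the replicates in where it was high. Of 80 merged H3K27ac regions 10 were shared, 56 were in replicate 1 only and 14 in replicate 2 only. Of the peaks of replicate 1, 15.2% lay in a shared region, against 42.0% over the genome, and of the peaks of replicate 2, 44%, against 74.8%. In the stretch from 1 to 1.5 Mb downstream replicate 1 had 19 peaks with a median fold of 5.16, from 3.32 to 7.72, and replicate 2 had 7 peaks with a median of 2.49, from 1.62 to 3.62. From the end of Myc to the end of Pvt1 the order was the other way: replicate 1 had 11 peaks with a median fold of 1.79 and replicate 2 had 6 peaks with a median of 3.78. Ranked within their own lists, the median peak of the 1 to 1.5 Mb stretch stood at the top 21.3% in replicate 1 and the top 60.3% in replicate 2. The median peak between Myc and the end of Pvt1 stood at the top 82.3% in replicate 1 and the top 33.7% in replicate 2. Over the genome the folds of the H3K27ac replicates had a Spearman rho of 0.06 across 16230 shared regions.

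**Figure D3:**
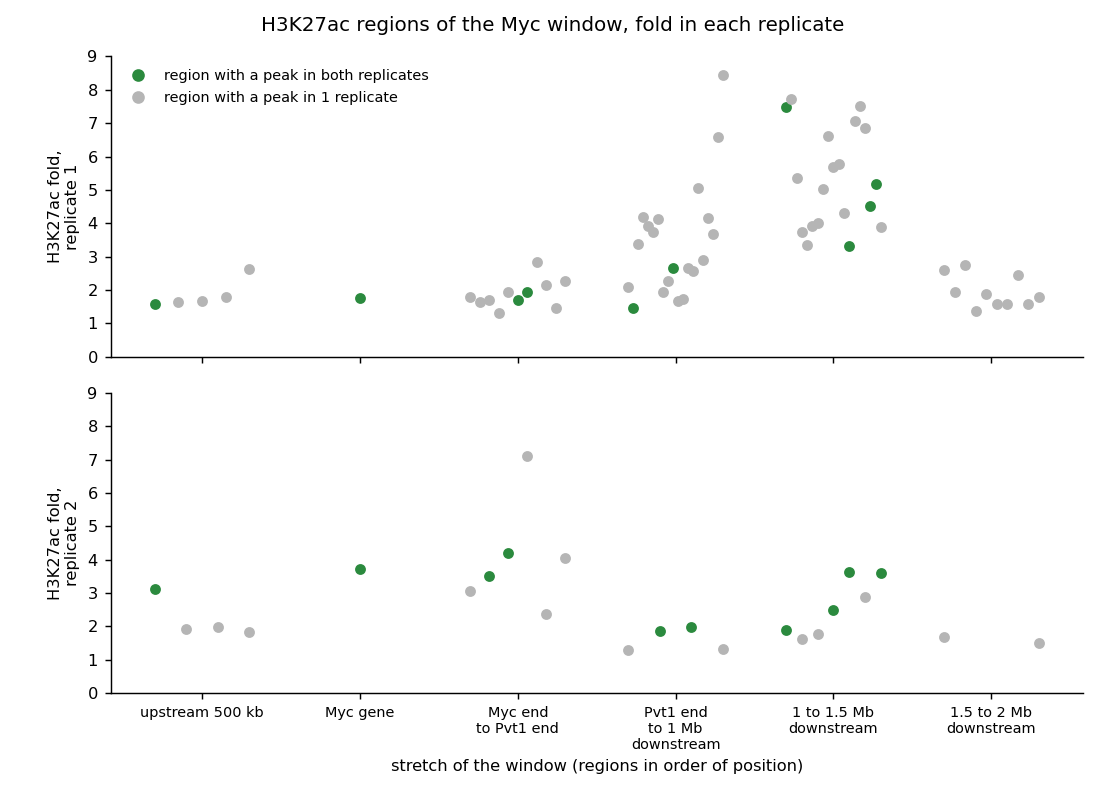
Fold enrichment of each H3K27ac region (y axis) in replicate 1 (upper panel) and replicate 2 (lower panel), by stretch of the window and in order of position within it. The median of replicate 1 is highest from 1 to 1.5 Mb downstream (5.16), its highest single point, 8.44, lies just before that stretch, and the highest point of replicate 2, at 7.09, lies in Pvt1.

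The 10 shared H3K27ac regions formed 8 stitched clusters, and the widest after those at +1463.7 kb and in Pvt1 was the 4471 bp at Myc itself. The others were single regions of 872 to 2407 bp, at -444.5, +472.2, +712.6, +1137.6 and +1392.0 kb, and none of these held a shared Rad21 region. The region at +1137.6 kb had H3K27ac folds of 7.48 in replicate 1 and 1.90 in replicate 2. The highest H3K27ac peak of the window, with a fold of 8.44 at +993.4 kb, was in replicate 1 only. In all, 3 of the 10 shared H3K27ac regions, at Myc, at +184.4 kb and at +1478.5 kb, overlapped shared Rad21, against 49.3% over the genome. At +1478.5 kb that overlap came from the H3K27ac peak of replicate 1 only. From 1.5 to 2 Mb downstream there was no shared H3K27ac region.

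That last stretch held the CTCF array. It had 11 of the 25 CTCF peaks, or 22 per Mb, against 4 to 8 per Mb in the other stretches outside the Myc gene. No value over the genome is given for this density. 10 of the 11 had q below 0.05, and these lay within 294 kb, from +1616.4 to +1910.8 kb. Over the whole window 14 of 25 CTCF peaks (56%) had q below 0.05, against 70.9% over the genome. The other 4 lay at -366.6 kb, at -2.0 and +0.2 kb at Myc, and at +1481.8 kb.

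Cohesin in the array was highest at +1667.4 kb, where Rad21 had folds of 45.9 in replicate 1 and 53.5 in replicate 2, in the top 2.04% and 1.70% of the lists. The CTCF fold there was 8.70, and the Rad21 summits lay 1 bp apart. The first array site, at +1616.4 kb, had Rad21 folds of 26.3 and 46.5 on a CTCF fold of 5.26. The sites at +1736.5, +1755.4 and +1786.4 kb had Rad21 folds of 16.2 and 25.8, of 17.0 and 23.2, and of 22.5 and 21.5.

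The order by CTCF was not the order by cohesin. The highest CTCF folds of the window were at the far end, 13.7 at +1910.8 kb and 10.9 at +1910.4 kb, 0.38 kb apart in an intron of Gsdmc4. Their Rad21 folds were low for the array, 11.2 and 6.72 at +1910.8 kb and 5.80 and 7.03 at +1910.4 kb. At +1843.8 kb, in Gsdmc2, CTCF had a fold of 7.10 and Rad21 7.81 and 9.37. The CTCF peaks at +1843.4 kb (fold 4.65) and +1876.8 kb (fold 5.39) overlapped no Rad21 peak in either replicate.

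The sites at +1843.4, +1876.8 and +1910.4 kb lie in introns of Gsdmc2, Gsdmc3 and Gsdmc4, and their printed sequences are near copies. The first and second match at 40 of 41 positions, the first and the last at 38, and the second and the last at 37. Each stretch of 41 bases occurs once in the reference. How reads that fit several copies were assigned is not given in the sources used here, so the folds at these 3 sites are uncertain. The sites at +1843.8 and +1910.8 kb lie 0.391 and 0.38 kb beyond those at +1843.4 and +1910.4 kb. Whether the copied sequence extends to them was not tested. No other pair of motif sites in the window matched at more than 26 positions.

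At CTCF peaks the strand of the motif differed between the array and the few motifs elsewhere. A core motif was found in 14 of 25 CTCF peaks (56%, exact 95% Clopper-Pearson interval 34.9 to 75.6%, which covers counting error only), against 72.4% over the genome. Among peaks with q below 0.05 it was found in 11 of 14, against 87%. In the stretch from 1.5 to 2 Mb downstream 8 motifs were on the minus strand and 1 on the plus strand. In the rest of the window 5 were on the plus strand, at -366.6, -271.3, -2.0, +1.7 and +428.5 kb, and 0 on the minus strand. Those at -366.6, -271.3, +1.7 and +428.5 kb had 2 mismatches each, so with at most 1 mismatch only the -2.0 kb motif was left there. These counts leave out the cores at Rad21 summits without CTCF, of which the one at +827.9 kb was on the minus strand. With q below 0.05 only, the counts were 8 minus and 1 plus in the array and 2 plus and 0 minus elsewhere. The plus-strand motif of the array was at its far end, at +1910.8 kb. The 8 minus-strand motifs followed each other with no plus-strand motif between them, and 3.04% of the 25574 CTCF peaks with a motif over the genome lay in such a run of at least 8 on 1 strand. That length was taken from the run seen here. The near-copy sites at +1843.4, +1876.8 and +1910.4 kb all lie in this run, and copies were not collapsed here or over the genome.

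**Figure D4:**
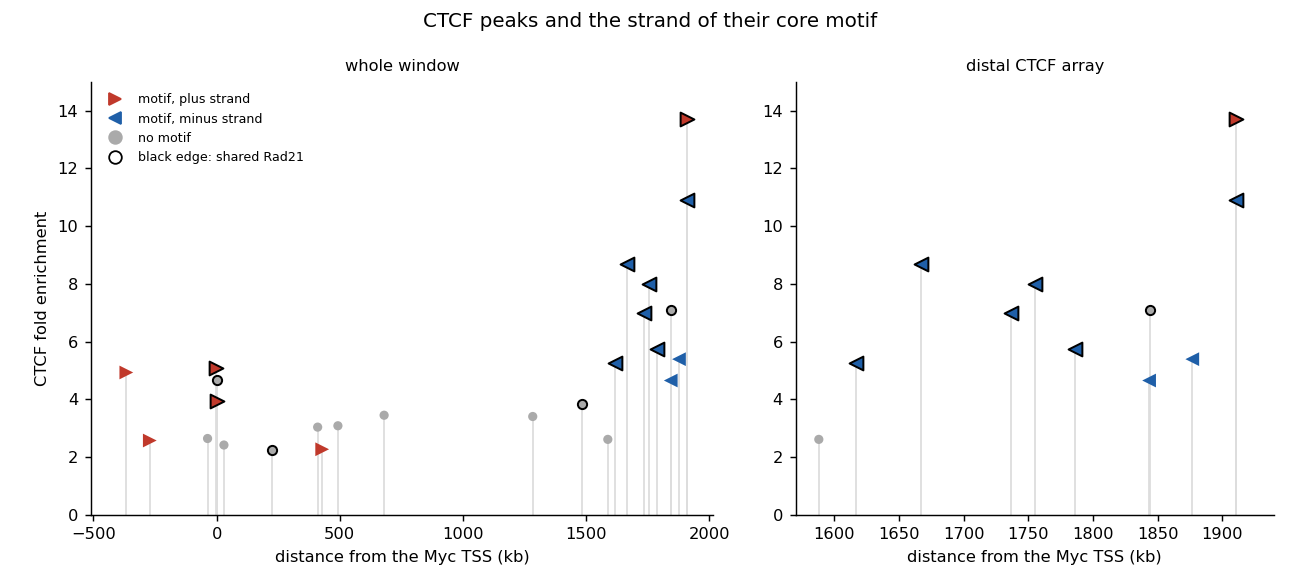
CTCF fold enrichment (y axis) against distance from the Myc TSS in kb (x axis) for the whole window (left) and the distal array (right), where arrowheads give the strand of the core motif and black edges mark CTCF peaks with shared Rad21. All motifs up to +428.5 kb point right and 8 of 9 in the array point left.

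Of the 13 CTCF peaks with shared Rad21, 9 had a core motif, and of the 12 without, 5 did. The CTCF fold had a median of 5.73 in the peaks with shared Rad21 and 3.06 in those without. 11 of the 14 CTCF peaks with q below 0.05 had shared Rad21, as did 2 of the 11 others. These splits were not made over the genome, so whether they are particular to this locus was not tested.

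By class, 13 of the 22 shared Rad21 regions overlapped CTCF, or 59.1% (exact 95% interval 36.4 to 79.3%), against 65.9% over the genome. Seen from CTCF, 13 of 25 peaks, or 52% (31.3 to 72.2%), had shared Rad21, against 58.2%. Of the 9 CTCF-free regions 2 overlapped shared H3K27ac, or 22.2% (2.81 to 60.0%), against 72%. The class with neither CTCF nor shared H3K27ac made up 7 of 22 regions, or 31.8%, and 9.54% over the genome. Of those 7, 2 overlapped H3K27ac in replicate 1 only, 1 in replicate 2 only and 4 in no replicate. These few regions lie close together in places, and the low match between the H3K27ac replicates at this locus enters each count that uses shared H3K27ac.

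Rad21 heights are given by class. CTCF-bound regions outside shared H3K27ac, 2 of which overlapped an H3K27ac peak of replicate 1, had median Rad21 folds of 16.6 and 22.4 in replicates 1 and 2, against 13.1 and 15.2 for that class over the genome. The 7 regions with neither mark had 4.46 and 6.54, against 6.14 and 7.53. The 3 regions with both CTCF and H3K27ac had medians of 7.93 and 6.27, against 11.6 and 14.0. Among them, the region at +1481.8 kb overlapped an H3K27ac peak of replicate 1 only.

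**Figure D5:**
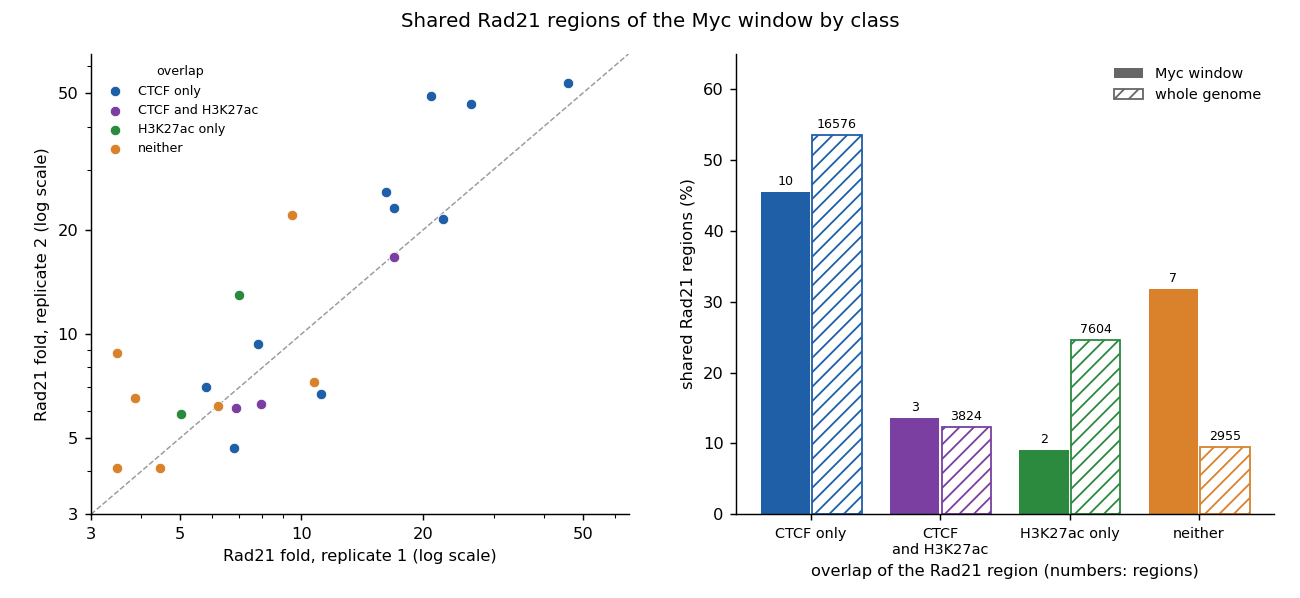
Left, Rad21 fold of the 22 shared regions in replicate 1 (x axis) and replicate 2 (y axis), both on log scales, coloured by what they overlap, with the line of equal folds. Right, the share of each class (y axis, percent) in the Myc window (filled) and over the genome (hatched), with the number of regions above each bar, where the class with neither mark is 31.8% in the window and 9.54% over the genome.

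Spacing was uneven. Neighbouring CTCF summits in the window were a median of 42.9 kb apart, against 24.8 kb over the genome, and from 0.38 to 603 kb. The longest gap ran from +679.9 to +1283.2 kb, and 1.72% of 35325 CTCF gaps over the genome were at least as long. It was not empty: it held 3 shared and 3 single-replicate Rad21 regions, and 2 shared and 18 single-replicate H3K27ac regions. With only CTCF peaks of q below 0.05, a threshold chosen after the data were seen, the longest gap grew to 1482 kb, from the Myc gene to +1481.8 kb. At a −log10 q of at least 5 it was 1618 kb, from the -2.0 kb site to the first array site. Shared Rad21 regions were a median of 50.5 kb apart, against 18.2 kb over the genome, with the longest gap of 590 kb from +227.0 to +817.6 kb. CTCF-free Rad21 regions lay a median of 71.8 kb from the nearest CTCF peak, from 665 bp at Myc to 262 kb at +1021.2 kb.

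The numbers of sites in the window lay within the quartiles of the genome. It held 25 CTCF peaks, against a median of 28 (quartiles 13 and 48) in 1020 tiles of the same length. It held 22 shared Rad21 regions, against 22 (7 and 46). Those without CTCF numbered 9, against 6 (1 and 15), and shared H3K27ac regions 10, against 12 (4 and 24).

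Short motifs were counted on both strands in the 9 CTCF-free Rad21 elements, in 300 bases around the Rad21 summit of replicate 1. Beside them stand the 7604 CTCF-free Rad21 regions of the genome that overlap H3K27ac. The TCF and LEF letters CTTTGA were in 5 of 9, against 18.1% of regions, at +179.5, +184.4, +817.6, +1021.2 and +1355.3 kb. The letters GTGGGAA of RBPJ, the DNA-binding partner of Notch, were in 2, at +107.5 and +1355.3 kb, against 5.30%. The ETS letters CAGGAA were in 4 (40.6%), the RUNX letters TGTGGT in 1 (24.4%) and the GATA letters AGATAA in 1 (9.15%). The E boxes CAGCTG and CAGGTG were in 3 (27.1%) and 4 (32.3%), and the E box CACGTG, which Myc and Max bind, in 0 (8.25%). Shares in parentheses are those over the genome. CAGCTG and CACGTG read the same on both strands, matches of different motifs may overlap, a match is not a binding site, and 7 of the 9 elements lack the shared H3K27ac that the genome regions have.

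The promoters of 14 genes of the Myc network were set beside that of Myc. H3K27ac was at 10, against 41.5% of protein-coding genes, Rad21 at 11, against 31.5%, and CTCF at 8, against 26.4%. All 3 marks were at 4, against 15%: Mnt, Mxd1 and Mxi1, which encode repressors that compete for Max, and Mlxip, a glucose-sensing relative. Max itself had Rad21 folds of 5.36 and 9.79 in replicates 1 and 2 and no CTCF. The paralogs Mycn and Mycl1 had CTCF and Rad21 without shared H3K27ac: the CTCF folds were 18.4 at Mycn and 9.84 at Mycl1, and the Rad21 folds were 31.0 and 33.7 at Mycn and 22.8 and 22.2 at Mycl1. Mycn had H3K27ac peaks of 1.69 and 4.88 that did not overlap. Among the repressors Mxd1 had the highest CTCF fold, 18.4, with Rad21 folds of 32.3 and 14.9, and Mxi1 had a CTCF fold of 14.7. Mxd4 had Rad21 and H3K27ac, Mxd3 had CTCF and Rad21, and Mga had H3K27ac with a Rad21 peak of 5.73 in replicate 2 only. Fbxw7, which targets the Myc protein for degradation, had Rad21 folds of 13.7 and 13.5 and H3K27ac folds of 7.21 and 6.39 without CTCF. Zbtb17, a partner of Myc in repression, had H3K27ac folds of 3.48 and 8.48. Of the Max-like branch, Mlx had shared H3K27ac alone and Mlxipl had CTCF and Rad21. The Rad21 fold of 48.9 in replicate 2 at Myc was above those of the 14, and its fold of 21.0 in replicate 1 was below those of Mycn, Mycl1, Mxd1 and Mlxip. The Myc H3K27ac fold in replicate 1, 1.77, was below those of 9 of the 10 network promoters with shared H3K27ac, but its fold in replicate 2, 3.71, was above those of 5 of the 10.

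The windows of other genes most like that of Myc were ranked by counts of CTCF peaks, CTCF-bound and CTCF-free Rad21 regions and H3K27ac regions in 5 bins of 500 kb, read along the strand of each gene, as the distance over 20 values of log2(count + 1). Among 21760 protein-coding genes the median distance to Myc was 7.70. The nearest were Epc2 (3.38), Inpp4b (3.55), Ncoa7 (3.57) and Tek (3.61). The bin from 1.5 to 2 Mb held 11 CTCF peaks for Myc, 4 for Epc2, 9 for Inpp4b, 5 for Ncoa7 and 3 for Tek, and 8 CTCF-bound Rad21 regions for Myc, 2 for Epc2, 4 for Inpp4b, 2 for Ncoa7 and 1 for Tek. Inpp4b, which encodes an inositol phosphatase, had all 3 marks at its promoter, and Tek, an endothelial receptor gene, had none.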

How the data were processed

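ChIP-seq peak lists of wild type thymocytes for CTCF (1 library), Rad21 (2) and H3K27ac (2) were used as deposited, on build mm9 per the labels. The submitters' processing notes name MACS2 2.1.0, Bowtie 1.0.0, CASAVA 1.82 and 1.84, Juicer 0.7.5, HiC-Pro 2.7.8 and Bowtie2 2.3.2, with no roles. Each library has a list of its own. For thresholds, controls and the treatment of reads that map to several places, the answer is not given in the sources used here.

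The authors' files give each peak a fold enrichment, a ratio over local background, which was used to rank and describe peaks. The deposited −log10 q served as a filter, and the deposited −log10 p and score were not used. The authors' CTCF and Rad21 lists add the summit as a distance from the peak start in bp. The CTCF and H3K27ac lists hold peaks with q of 0.05 or more. No read counts are held, so depth and its precision are unknown, and intervals cover counting error only.

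Entries with the same coordinates were counted once, on chromosomes 1 to 19 and X, and 0 peaks ran past a chromosome end of NCBIM37, the assembly that mm9 displays. An overlap needed 1 bp. Overlapping replicate peaks were merged, and a region with both was shared. A shared region spans the union of its peaks, so it can overlap a feature that only 1 replicate reaches. Genes were those of GENCODE vM1. The work used Python 3.11.15, NumPy 2.4.6, SciPy 1.17.1 and matplotlib 3.10.9, and the scripts were tested on simulated data. Named were Myc, every annotated gene in the window, the 14 network genes in list order, the 4 genes with the most similar windows over 5 Mb apart, and in each class the 3 highest Rad21 regions, with the other members given by position. The locus, the lists and the measures were chosen with earlier results of these data known. Values of some marker genes are not reported here.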

Additional observations from a re-analysis of the deposited data

How the results depend on the processing

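Counts and shares depended on the threshold and on requiring both replicates. At a −log10 q of at least 5 in the CTCF and Rad21 lists, or in all lists, 9 CTCF peaks were left and 100% of them had shared Rad21, and in all lists 0 shared H3K27ac regions were left, so that 0% of CTCF-free Rad21 regions overlapped one. With the filter on CTCF and Rad21 only, the last share was 57.1% (4 of 7), since 3 weakly bound CTCF sites in H3K27ac then counted as CTCF-free. Keeping CTCF peaks with q below 0.05, an alternative chosen after seeing the data, left 14, of which 78.6% had shared Rad21. From 200 kb upstream to 1 Mb downstream there were 10 CTCF peaks, 11 shared Rad21 and 5 shared H3K27ac regions, since the distal array lies outside. Leaving out a replicate, which removes the demand for a match, gave 30 to 42 Rad21 regions, 17 to 28 without CTCF, 33.3 to 43.3% with CTCF, and 25 to 66 H3K27ac regions. Without H3K27ac replicate 1 or 2 the stitched clusters numbered 19 or 43, and the widest was 15336 or 46905 bp. With at most 1 mismatch 2 motifs were on the plus and 7 on the minus strand, and within 100 bp of the summit 7 and 9. Stitching within 3000 bp gave 10 clusters, the widest 6632 bp. Of 64 values under alternatives, 41 stayed within 1.5 times (counts), their interval (shares) or, for the widest cluster, the spread between replicates, and 23 moved further. An overlap of 50% of the shorter region was among those that changed little. With 1 CTCF library and no read counts, absence of a peak is not absence of binding.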
